A study of Mus musculus with 6 samples.

Results

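The extracellular proteases of the matrix metalloproteinase (Mmp) and Adamts families and the tissue inhibitors of metalloproteinases (Timp) were examined in cultures labelled sympathetic ganglion neurons, from mice with and without a Cre-driven deletion of Slit2. Genes were taken by symbol: Mmp, Adamts or Timp followed by a number, which left out the Adamts-like genes and the Adam family. Of 20173 genes in the count table, 37 were members, made up of 18 Mmp, 16 Adamts and 3 Timp genes. RNA-Seq had been run on 6 libraries of cultured sympathetic chain cells from 3-week-old male mice, kept for 4 to 5 days in B27 neural medium. The 3 control libraries were Slit2fl/fl, with a floxed Slit2 allele and no Cre. The 3 Slit2th libraries, labelled SLIT2-knockout, carried the floxed allele together with Cre driven by the promoter of Th, the gene for tyrosine hydroxylase, so that deletion was directed to Th-expressing cells. The isolation method names dorsal root neurons and another passage of the paper names ganglions, and no source used here says whether libraries came from separate or pooled animals. P-values therefore measure the spread between these libraries, which may be technical.

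Mmps and Adamts proteins are zinc-dependent enzymes that are made as inactive proenzymes and act on the surface of cells or in the matrix around them. Mmps cut collagens, gelatin and many other substrates, while most of the well-known Adamts enzymes cut proteoglycans such as aggrecan and versican or trim procollagens. Timps bind the active site and block it, and in ganglia and peripheral nerve this balance is known from nerve growth and repair.

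Total counts ran from 1255939 to 3155406 per library, and 3 counts, the floor taken for detection, equalled 0.961 to 2.65 CPM (counts scaled to the library total after TMM normalisation) and covered counting error only. Slit2 itself was at 44.5, 55.1 and 43.8 CPM in the controls and at 15.0, 11.5 and 15.2 CPM in Slit2th, so every Slit2th library was lower but still held Slit2 transcripts. The replicate 1 libraries of both groups stood apart. Across genes, Slit2fl/fl replicate 1 correlated with the other libraries at r = 0.780 to 0.854 and Slit2th replicate 1 at 0.806 to 0.861, against 0.904 to 0.956 among the other 4. Th had 0 counts in all 6 libraries, and of 15 sympathetic neuron markers in the table only 5 reached the level needed for testing, so the labelled neuron identity was not borne out by its defining transcript. Those 5, Tubb3, Uchl1, Stmn2, Gap43 and Slc18a2, had counts in all 6 libraries, and the neuron markers summed to 199 to 593 CPM. Glial and fibroblast markers were abundant, at 5669 to 19864 and 2741 to 5476 summed CPM. In such bulk samples, fewer cells of a type and less RNA per cell cannot be told apart.

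The catalytic zinc of these enzymes is held by 3 histidines, and the codons for them are shown for the most abundant proteases because they mark which members carry a catalytic centre of this form. The stretches of 33 coding bases were read from GENCODE M21 transcripts (GRCm38, the same build as mm10), with the 3 histidine codons in capitals.
Mmp14: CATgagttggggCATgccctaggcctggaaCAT
Mmp2: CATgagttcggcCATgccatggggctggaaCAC
Mmp17: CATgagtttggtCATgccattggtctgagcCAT
Adamts5: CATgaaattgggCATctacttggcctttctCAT
Adamts1: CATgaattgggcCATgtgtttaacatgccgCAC
Adamts4: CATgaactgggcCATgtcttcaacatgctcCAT

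The Mmp14 stretch lies in exon 5 at chr14:54437627-54437659 on the plus strand and codes for residues 239 to 249. Mmp2 shares 27 of the 33 bases with it (exon 8, chr8:92839279-92839311, plus strand) and Mmp17 shares 25 (exon 5, chr5:129596597-129596629, plus strand). Adamts5, Adamts1 and Adamts4 share 22, 20 and 21 bases with Mmp14. The pattern searched was codons for His-Glu-x-x-His-x-x-Gly-x-x-His, with x any residue, Asn allowed in place of Gly and Asp in place of the last His. It was found in 18 of 18 Mmp genes, in 15 of 16 Adamts genes, all but Adamts8, and in 0 of the 3 Timps, which are not proteases. A site with another residue in place of Gly or Asn would be missed, so the result for Adamts8 does not show that it lacks a catalytic centre. The families differed in gene structure here: in all 18 Mmp genes the 33 bases lay in 1 exon, whereas in all 15 Adamts genes an exon junction split them. The junction fell after base 10 in Adamts1, Adamts4, Adamts5 and Adamts15 and after base 17 in the other 11. In Adamts5 the intron between these parts is 9779 bases long, against 322 in Adamts1 and 673 in Adamts4.

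The level of each gene was compared per length, as CPM per kilobase of merged exons averaged over the 6 libraries. Timp1 had the highest mean, 438.6 CPM per kilobase, but it ranged from 92.0 to 1666. Adamts5 followed at 149 (80.1 to 186), then Mmp14 at 105 (22.3 to 168), Adamts1 at 86.7 (53.4 to 114), Mmp2 at 75.8 (33.4 to 138) and Timp2 at 55.3 (39.0 to 77.8). Within libraries, Adamts5 was above Mmp14 in 6 of 6, as was Timp2 above Mmp17, the next gene in the order. The other neighbours among these genes changed places: Timp1 was above Adamts5 in 2 of 6 libraries, and Mmp14 above Adamts1, Adamts1 above Mmp2 and Mmp2 above Timp2 in 4 of 6 each. Timp1 led the members only in the replicate 1 libraries, and Adamts5 was above it in the other 4. Among 20159 genes with a length, Timp1 ranked 100, Adamts5 308, Mmp14 426 and Timp2 774. A second tier held Mmp17 (17.0), Adamts4 (11.9), Timp3 (8.05) and Mmp19 (6.83). When the longest transcript replaced the merged exons, the first 10 genes stayed the same, with Mmp14 and Adamts5 changing places, as did Timp3 and Adamts4.

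**Figure D1:**
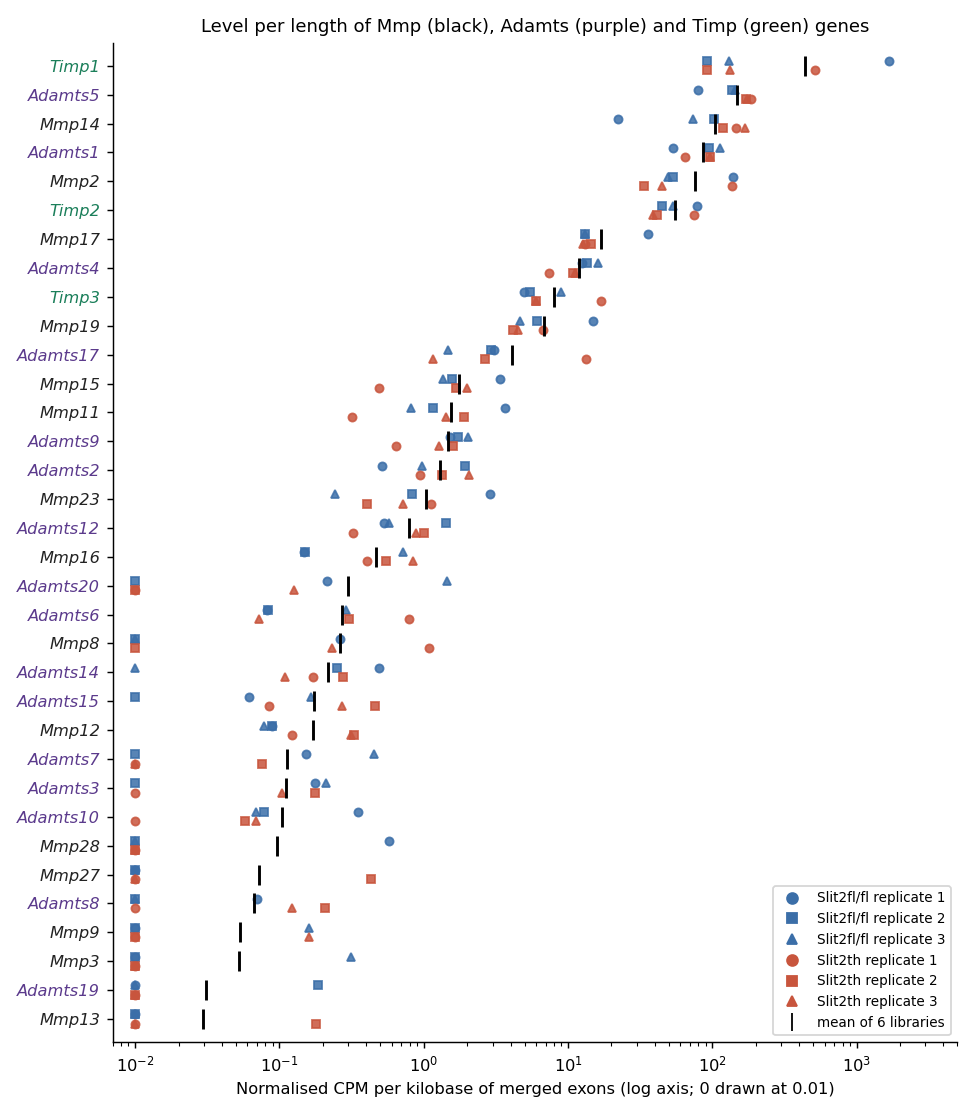
Level in each library of every member with a count in any library, whether or not above the floor. Values are normalised CPM per kilobase of merged exons on a log axis, with values of 0 drawn at 0.01. Blue is Slit2fl/fl, red is Slit2th, the symbol gives the replicate number and the black bar is the mean of 6 libraries. Timp1 spans 92.0 to 1666, with both replicate 1 libraries to the right of the other 4.

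To ask whether loss of Slit2 went with a change in these genes, Slit2th was compared with Slit2fl/fl by edgeR's quasi-likelihood test over all 12152 genes with at least 1 CPM in at least 3 libraries. The filter kept 22 members: 8 Mmp, 11 Adamts and 3 Timp genes. No member passed an adjusted p of 0.05, and neither did any other gene (percent of genes called, 0), the smallest adjusted p over all genes being 0.357. No member reached an unadjusted p of 0.05 either, while 3.99% of all genes did so as higher and 6.78% as lower. DESeq2 placed 1 member higher and 1 lower at an unadjusted p of 0.05, against 3.90% and 5.91% of all genes, and 0 members past the adjusted threshold. Adjusted p-values of the members ran from 0.471 to 0.977. Slit2th over Slit2fl/fl, the log2 fold change was above 0 for 8 of the 22 (47.8% of all genes tested) and below 0 for 14, with a median of -0.18 against -0.05 over all genes tested. The medians were -0.60 for the Mmp, -0.03 for the Adamts and -0.18 for the Timp genes. Mmp14 and Adamts5 were above every Slit2fl/fl library in every Slit2th library, and Adamts4 was below in every one. All genes tested did so in 8.74% of cases upward and 9.72% downward, and 2 and 1 of 22 members lie close to or under these shares.

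**Figure D2:**
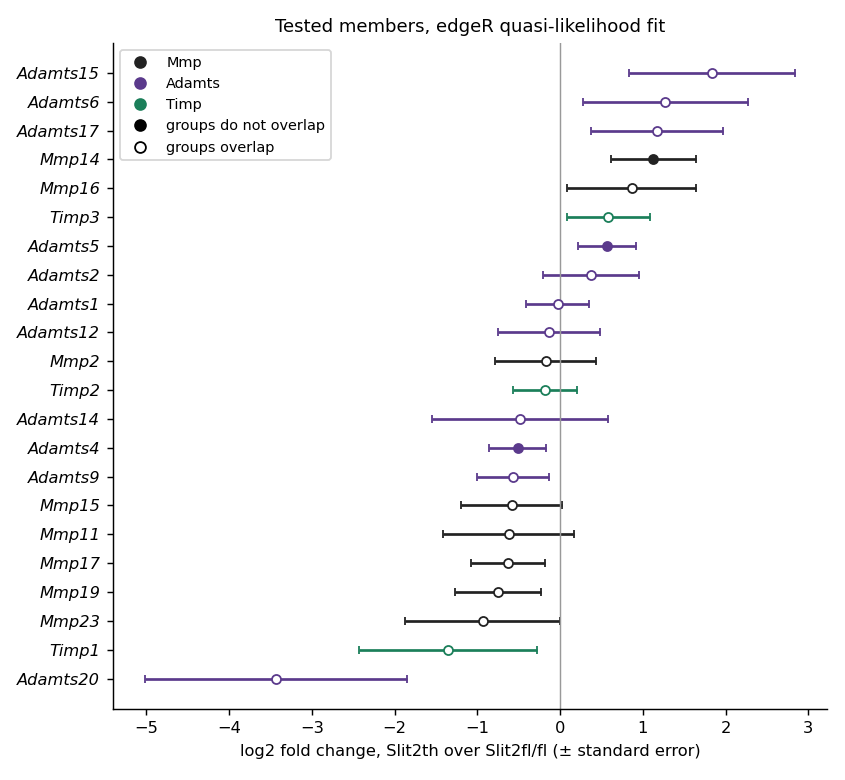
Log2 fold change of the 22 tested members, Slit2th over Slit2fl/fl, with the standard error from edgeR's quasi-likelihood fit; black is Mmp, purple Adamts and green Timp, and filled points are members whose groups do not overlap. Values run from -3.43 for Adamts20 to 1.83 for Adamts15, and none passed the adjusted threshold.

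Mmp14 (chromosome 14, 54431612 to 54445364, plus strand) encodes a membrane-anchored collagenase that also activates the Mmp2 proenzyme at the cell surface. It stood at 133, 608 and 437 CPM in control replicates 1, 2 and 3, against 867, 708 and 999.6 CPM in Slit2th. The groups did not overlap, and the highest control and the lowest Slit2th library were both replicate 2. The mean was 393 ± 241 CPM in the controls and 858 ± 146 CPM in Slit2th (SD, n = 3). The log2 fold change was 1.13 with a standard error of 0.52 (edgeR adjusted p = 0.471), and the exact permutation test gave p = 0.10, the smallest that 3 libraries against 3 allow. Mmp14 kept a positive log2 fold change in all 16 alternative settings, from 0.69 to 1.72, with an unadjusted p under 0.05 in 8 of them and adjusted p-values from 0.110 to 0.818. Leaving out Slit2fl/fl replicate 1 gave 0.72, and without replicate 1 of both groups the log2 fold change was 0.69 (edgeR adjusted p = 0.110). Fibroblast markers moved in the same direction: 9 of 11 tested had a positive log2 fold change, with a median of 0.56, and their summed level was 2741 to 3851 CPM in the controls and 3807 to 5476 CPM in Slit2th. Their part in the Mmp14 values was not tested.

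Mmp2, the gelatinase that Mmp14 activates, was split by replicate number and not by genotype. It measured 467, 179 and 166 CPM in the controls and 459, 113 and 150 CPM in Slit2th. Both replicate 1 libraries were high, the other 4 were low and the groups overlapped. The log2 fold change was -0.17 with a standard error of 0.61 (edgeR adjusted p = 0.917), and it turned to 0.49 without Slit2fl/fl replicate 1. Mmp9, the other gelatinase, had 1 count in each of 2 libraries and 0 in the rest.

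Mmp17, a membrane-linked Mmp attached by a lipid anchor, was at 237, 87.5 and 87.0 CPM in the controls and 86.5, 95.9 and 83.5 CPM in Slit2th. A single library, Slit2fl/fl replicate 1, was high, and the other 5 lay between 83.5 and 95.9 CPM. Its log2 fold change of -0.63 (standard error 0.45, edgeR adjusted p = 0.586) was 0.03 without that library. Mmp19, a secreted Mmp, had the same outline, with 52.5, 21.4 and 16.5 CPM in the controls against 23.8, 14.8 and 15.8 CPM in Slit2th. The groups overlapped, and the log2 fold change of -0.75 (standard error 0.52, edgeR adjusted p = 0.575) was -0.07 without Slit2fl/fl replicate 1. Mmp15, a transmembrane Mmp, measured 18.3, 8.43 and 7.39 CPM in the controls and 2.65, 9.06 and 10.7 CPM in Slit2th, and Mmp11, stromelysin 3, measured 10.2, 3.24 and 2.27 CPM against 0.883, 5.25 and 3.95 CPM. In both, Slit2fl/fl replicate 1 was the highest and Slit2th replicate 1 the lowest library. Their log2 fold changes were -0.58 and -0.62 and became 0.31 and 0.73 without replicate 1 of both groups. Exons of Mmp11 overlap those of Chchd10 on the other strand and those of Mmp19 overlap Tmem198b and Gm47093, and the strand setting of the counting is not given in the sources used here, so reads may be shared, here and in any other member whose exons overlap a gene.

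The other tested Mmps, Mmp16 and Mmp23, did not exceed 7.34 CPM in any library. Of the 10 untested Mmps, Mmp21, Mmp24 and Mmp25 had 0 counts throughout and Mmp28 had 7 counts, all in Slit2fl/fl replicate 1. On chromosome 9, a group of 5 Mmps between positions 7272514 and 7581885 (Mmp3, Mmp8, Mmp12, Mmp13 and Mmp27), which includes collagenases and the macrophage elastase Mmp12, summed to 4, 1 and 2 counts in the controls and 4, 8 and 5 in Slit2th. Mmp12 had 2, 1 and 1 counts against 1, 5 and 4, and its groups did not overlap in CPM, but these counts are near the floor. Macrophage markers were higher in Slit2th, with all 11 tested having a positive log2 fold change (median 2.15) and summed levels of 33.5 to 128 CPM in the controls against 130 to 672 CPM in Slit2th. Their part in the Mmp12 counts was not tested.

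Adamts5 was the most abundant Adamts gene and made up 67.1% to 79.8% of the summed Adamts level in each library. It encodes a major aggrecanase, and lies on chromosome 16 (85856173 to 85901828, minus strand) next to Adamts1, with 53059 bases between them. It measured 864, 1472 and 1549 CPM in the controls and 2010.4, 1848 and 1885 CPM in Slit2th. All Slit2th libraries were above all controls and close together, and Slit2fl/fl replicate 1 was the lowest of the 6. The means were 1295 ± 375 and 1915 ± 84.98 CPM (SD, n = 3). The log2 fold change was 0.56 with a standard error of 0.35 (edgeR adjusted p = 0.545), 0.35 without Slit2fl/fl replicate 1, 0.29 without replicate 1 of both groups, and positive in all 16 alternative settings. The summed level of the glial markers separated the groups as well and ranked the 6 libraries in the same order as Adamts5, at 5669, 10599 and 11694 CPM in the controls against 19864, 13133 and 15258 CPM in Slit2th. Of the 11 glial markers tested, 4 had a log2 fold change above 0, and the median of the 11 was -0.32. None of the 12 glial markers was at 0 in all libraries, and their part in the Adamts5 values was not tested.

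Adamts1, which cuts versican and aggrecan, did not follow its neighbour. It measured 283, 506 and 604 CPM in the controls and 342, 510 and 512 CPM in Slit2th, with replicate 1 low in both groups. Its log2 fold change was -0.03 with a standard error of 0.38 (edgeR adjusted p = 0.977). Adamts4, another aggrecanase, measured 59.9, 65.5 and 77.3 CPM in the controls against 35.3, 52.0 and 54.2 CPM in Slit2th. Every Slit2th library was below every control, with means of 67.6 ± 8.91 and 47.2 ± 10.3 CPM (SD, n = 3). The log2 fold change was -0.51 with a standard error of 0.35 (edgeR adjusted p = 0.568), and stayed between -0.62 and -0.34 in all 16 alternative settings, the smallest fall being without Slit2th replicate 1. Thus Adamts5 and Adamts4 had opposite signs, but neither passed the test and the difference between them was not tested.

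**Figure D3:**
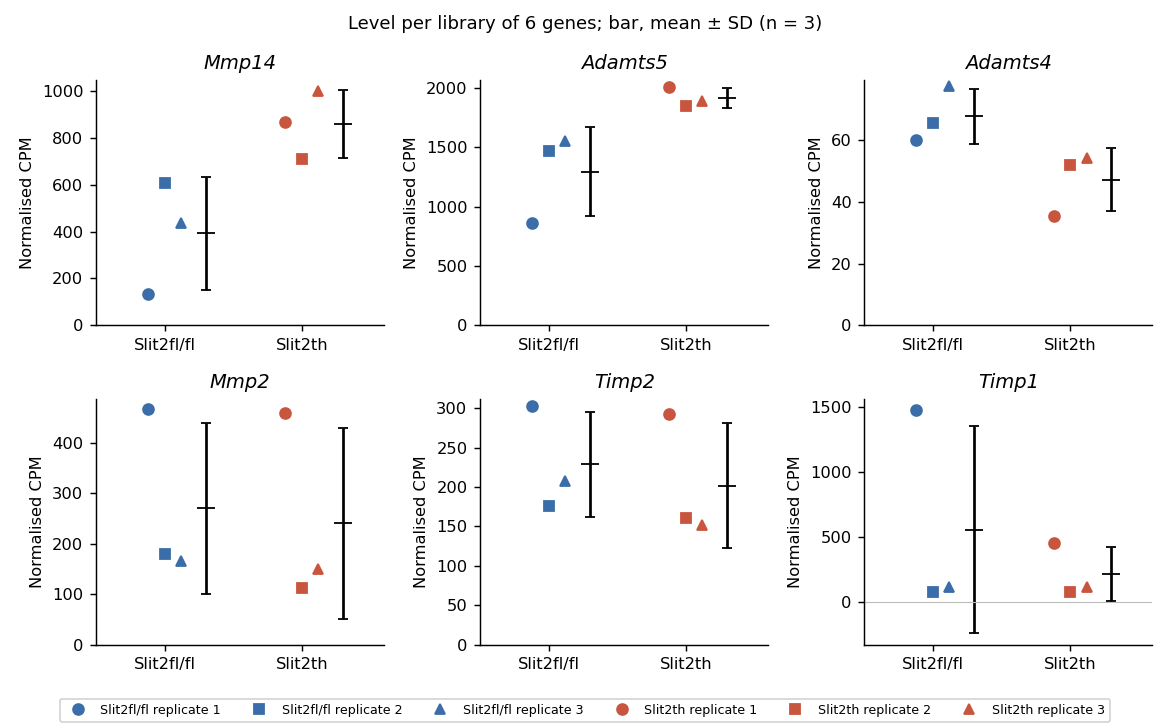
Normalised CPM in each library for Mmp14, Adamts5, Adamts4, Mmp2, Timp2 and Timp1, each panel on its own linear axis, with the mean and SD of 3 libraries beside the points. The groups do not overlap for Mmp14, Adamts5 and Adamts4, while replicate 1 of both groups is highest for Mmp2, Timp2 and Timp1.

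Adamts9, a proteoglycan-cutting member, was at 23.1, 25.9 and 30.7 CPM in the controls and 9.71, 23.9 and 19.2 CPM in Slit2th, with a log2 fold change of -0.57 (standard error 0.44, edgeR adjusted p = 0.604) that was -0.29 without Slit2th replicate 1. Its groups overlapped by a single library, Slit2th replicate 2. Adamts17, linked to fibrillin microfibrils, measured 23.7, 22.7 and 11.4 CPM against 103, 20.5 and 9.03 CPM. Slit2th replicate 1 alone was high, and the log2 fold change of 1.17 (standard error 0.80, edgeR adjusted p = 0.569) was -0.38 without it. Adamts2, a procollagen N-proteinase, measured 4.80, 18.1 and 9.10 CPM against 8.83, 12.4 and 19.2 CPM, overlapping widely, with a log2 fold change of 0.37 (standard error 0.58, edgeR adjusted p = 0.806). The other tested Adamts genes, Adamts6, Adamts12, Adamts14, Adamts15 and Adamts20, stayed at or below 15.6 CPM in every library. Adamts20, chosen here after its values were seen, had the lowest log2 fold change, -3.43 with a standard error of 1.58 (edgeR adjusted p = 0.473). It rested on 6, 0 and 23 counts in the controls and 0, 0 and 2 in Slit2th, and so on a single library. The 5 untested Adamts genes, Adamts3, Adamts7, Adamts8, Adamts10 and Adamts19, had at most 9 counts in any library. Adamts10, with 9, 1 and 1 counts against 0, 1 and 1, did not overlap between groups in CPM but was near the floor.

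Among the inhibitors, Timp1, a secreted Timp that is weak against membrane-type Mmps, varied the most. It measured 1479.7, 81.7 and 115 CPM in the controls and 459.8, 82.1 and 118 CPM in Slit2th. Replicates 2 and 3 of the groups lay side by side, and replicate 1 was high in both, with the highest library 18.1 times the lowest. The log2 fold change was -1.35 with a standard error of 1.07 (edgeR adjusted p = 0.623), 1.17 without Slit2fl/fl replicate 1 and 0.0047 without replicate 1 of both groups. Timp2, which inhibits Mmps and also forms the complex through which Mmp14 activates Mmp2, was at 303, 176 and 208 CPM against 293, 161 and 152 CPM. Its replicate 1 libraries were again the highest, the groups overlapped, and the log2 fold change was -0.18 (standard error 0.39, edgeR adjusted p = 0.860). Timp3, the matrix-bound Timp that also inhibits Adamts4 and Adamts5, was at 40.3, 44.1 and 72.8 CPM against 139, 49.1 and 48.5 CPM. Slit2th replicate 1 was the highest, and the log2 fold change was 0.58 (standard error 0.50, edgeR adjusted p = 0.641) with all libraries and -0.27 without replicate 1 of both groups. Timp3 shares exon positions with Syn3 on the other strand, which was at 2.99 ± 2.32 and 2.72 ± 0.701 CPM (SD, n = 3).

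The upstream sequences of Mmp14 and Timp1 are shown because these genes had the largest positive log2 fold change and the widest range between libraries among the 6 most abundant members. They are the 250 bases before the RefSeq start (GRCm38.p6, plus strand, chr14:54431348-54431597 and chrX:20869916-20870165), with matches to GGGCGG or its reverse complement CCGCCC in capitals.
Mmp14: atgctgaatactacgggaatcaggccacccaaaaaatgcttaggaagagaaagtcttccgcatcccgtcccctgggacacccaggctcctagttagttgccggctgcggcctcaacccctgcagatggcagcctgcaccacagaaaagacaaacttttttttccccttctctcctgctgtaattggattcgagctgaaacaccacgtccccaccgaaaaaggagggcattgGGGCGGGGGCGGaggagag
Timp1: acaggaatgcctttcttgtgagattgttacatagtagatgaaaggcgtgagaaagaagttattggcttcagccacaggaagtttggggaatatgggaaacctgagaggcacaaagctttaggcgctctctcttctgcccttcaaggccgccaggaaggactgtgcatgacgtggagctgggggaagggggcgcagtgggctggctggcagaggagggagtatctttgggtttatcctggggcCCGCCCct

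Of the 37 members, 24 had a RefSeq promoter entry, giving 26 windows. GGGCGG, searched on both strands, was in 15 of 26 member windows (57.7%) and in 32.7% of 32851 windows of all genes. It starts 19 and 13 bases before the Mmp14 start and 8 bases before the Timp1 start. TATAAA, searched on both strands, was in 15.4% of member and 12.4% of all windows, and TGANTCA, which reads the same on both strands, in 11.5% and 6.75%. Neither of these 2 motifs was in the Mmp14 or Timp1 window. The median GC content was 62.6% in member and 52.4% in all windows. These matches describe the letters only.

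The summed level of each family was described without a test. Mmp genes summed to 929, 911 and 725 CPM in the controls and 1449, 955 and 1276 CPM in Slit2th, without overlap, with means of 855 ± 113 and 1227 ± 251 CPM (SD, n = 3). Mmp14 was 59.8% to 78.3% of this sum in 5 libraries, and Mmp2 was 50.3% in Slit2fl/fl replicate 1. Adamts genes summed to 1275, 2131 and 2309 CPM against 2521, 2489 and 2516 CPM, again without overlap, and followed Adamts5. The glial and macrophage marker sums were also higher in every Slit2th library than in any control, and their part in the family sums was not tested. Timp genes summed to 1823, 301 and 396 CPM against 891, 292 and 318 CPM, with a log2 ratio of means of -0.75. Leaving Timp1 out gave 281 ± 61.8 and 281 ± 131 CPM (SD, n = 3), so the difference in means came from Timp1. Per length, the ratio of summed Timp to summed Mmp level was 7.86, 0.800 and 1.33 in the controls and 2.001, 0.792 and 0.756 in Slit2th, highest in both replicate 1 libraries.

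**Figure D4:**
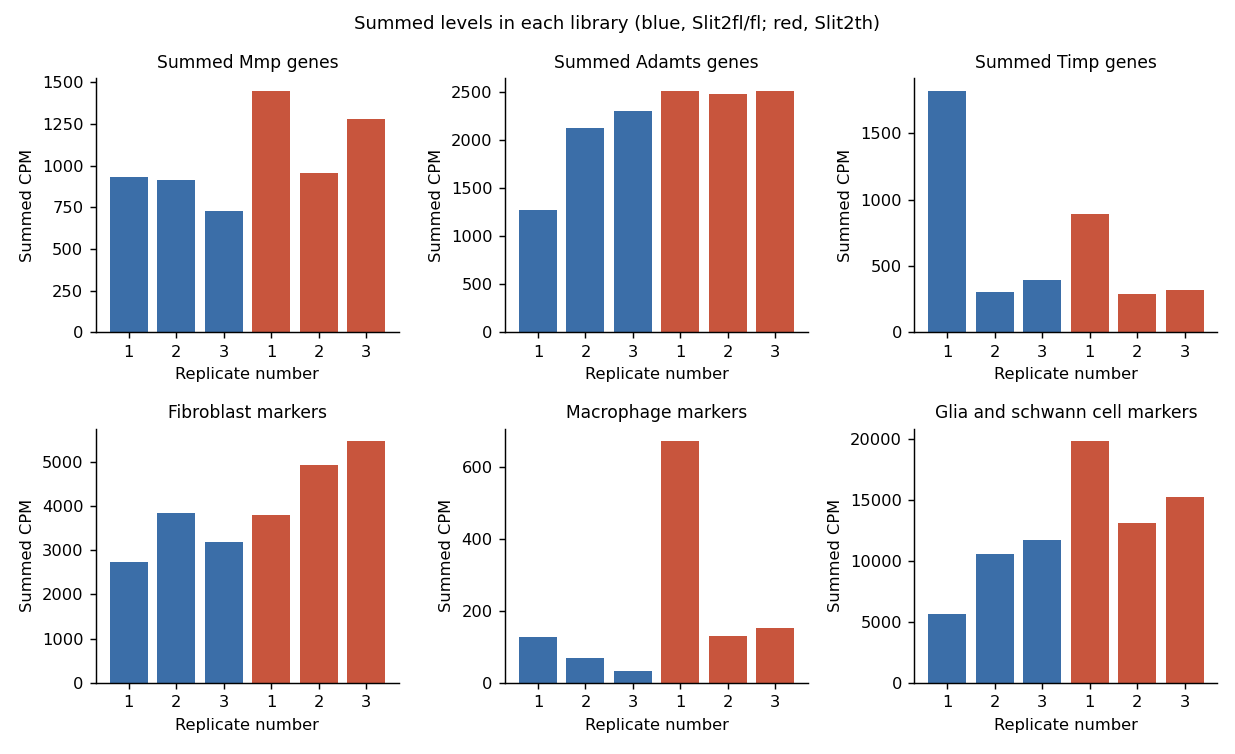
Summed normalised CPM of the Mmp, Adamts and Timp genes and of fibroblast, macrophage and glial marker lists in each library, in bars from 0 (blue Slit2fl/fl, red Slit2th, replicate number on the x axis). Summed Mmp and Adamts levels are higher in every Slit2th library (955 to 1449 and 2489 to 2521 CPM) than in any control, as is the glial marker sum (13133 to 19864 against 5669 to 11694 CPM), and the macrophage sum peaks at 672 CPM in Slit2th replicate 1.

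Other genes of the same pathway were taken from 3 lists of proteases and their receptors, inhibitors and Adamts-like proteins, and proteoglycan substrates. Of 52 listed genes, 49 were in the table and 36 were tested. None passed an adjusted p of 0.05 by edgeR's quasi-likelihood test, and log2 fold changes were above 0 for 20 and below 0 for 16, with a median of 0.06. At an unadjusted p of 0.05, 4 of the 36 were higher, against 3.99% of all genes, and 0 were lower, against 6.78%. Tfpi2, an inhibitor of serine proteases that also acts on some Mmps, measured 2.64 ± 1.18 CPM in the controls and 14.6 ± 5.49 CPM in Slit2th (log2 fold change 2.51, standard error 0.59, edgeR adjusted p = 0.422). Plat, the tissue plasminogen activator, measured 63.6 ± 13.0 and 114 ± 2.02 CPM (0.85, standard error 0.33, edgeR adjusted p = 0.430). Serpine2, an inhibitor of Plat and thrombin, measured 125 ± 20.9 and 208 ± 36.4 CPM (0.74, standard error 0.32, edgeR adjusted p = 0.462). Vcan, the proteoglycan versican cut by Adamts1, Adamts4 and Adamts5, measured 59.8 ± 21.9 and 181 ± 137 CPM (1.596, standard error 0.56, edgeR adjusted p = 0.422), the latter spread coming from 338 CPM in Slit2th replicate 1. These 4 were picked by their unadjusted p, and none overlapped between groups. Of all genes tested, 8.74% were likewise higher in Slit2th without overlap. For Vcan the gap was narrow, with 82.4 CPM in Slit2fl/fl replicate 3 against 84.4 CPM in Slit2th replicate 2.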

How the data were processed

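RNA-Seq libraries (TruSeq, Illumina) were made from 3 Slit2fl/fl and 3 Slit2th cultures. The authors deposited whole-number read counts per gene, not normalised, after alignment with HISAT2; the paper names mm10, while the submitters' processing notes list GRCm39, and the counter, strand setting and annotation release are not given in the sources used here. The authors tested with edgeR without genes under 1 CPM.

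The fits used edgeR 4.0.16 under R 4.3.3, with DESeq2 1.42.0 and limma 3.58.1 for alternatives. A gene entered when 3 or more libraries reached 1 CPM. After TMM normalisation, the groups were tested by quasi-likelihood with no covariate, and p-values were adjusted by Benjamini-Hochberg over all 12152 genes (threshold 0.05). The biological coefficient of variation was 50.4%. For single genes, log2(CPM + 0.5) was also compared by an exact two-sided permutation test, whose smallest possible p is 0.10. Positions, lengths and coding sequence came from GENCODE M21 (20159 of 20173 identifiers found), promoters from RefSeq. The members and lists were chosen with earlier results of these data known. Values per library are given for every Timp, the 6 Mmp and 6 Adamts genes highest per length, and any member past an unadjusted p of 0.05 or without overlap between groups. Pathway genes are named at an unadjusted p under 0.05, at most 4 a list. The test was also run on simulated counts, drawn for each gene independently and without outlying libraries. Nothing is concluded from that run here. Alternatives were other normalisations, tests and filters, a replicate block, and fits with libraries left out. Some genes are not reported here.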

Additional observations from a re-analysis of the deposited data

How the results depend on the processing

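No member passed the adjusted threshold under any of the 16 alternatives. Over all genes, DESeq2 called 31 of 12152 and no filter on low counts called 7 of 17358 (0.0403%). Leaving out replicate 1 of both groups called 369 (2.94%). At an unadjusted p of 0.05, 1 member was higher under DESeq2, limma-voom, no filter and the replicate block. The shares of all genes higher there were 3.9%, 4.76%, 4.37% and 5.7%. Under DESeq2, no filter and the replicate block, 1 was lower, against 5.91%, 6.21% and 7.58% of all genes. The members tested numbered 22, or 34 with no filter. Leaving out libraries gave 0 to 1 higher and 0 to 1 lower, of 19 to 24 tested, against 1.94% to 7.37% and 3.60% to 9.86% of all genes. The higher gene was Mmp14 and the lower one Adamts20 except without Slit2fl/fl replicate 3 (Mmp16 higher) and Slit2th replicate 3 (Adamts17 higher). Of the pathway genes, 1 was lower under limma-voom, 2 with no filter and 3 under the replicate block (5.13%, 6.21% and 7.58% of all genes). Leaving out libraries gave 1 to 7 higher and 0 to 2 lower, with 0 to 1 adjusted calls (Tfpi2 without replicate 1 of both groups, where 7 of 37 were higher against 7.37% of all genes). Members without overlap numbered 2 to 6 higher and 1 to 5 lower when libraries were left out, against 11.1% to 23.5% and 13.5% to 24.1% of all genes at these smaller group sizes, and the log2 ratio of summed Timp level ran from -1.46 to 0.52, the highest without Slit2fl/fl replicate 1.

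Adamts1 turned to 0.023 under limma-voom and 0.014 under the replicate block. Leaving out libraries, log2 fold changes ran from -0.29 to 0.14 for Adamts1, -2.48 to 1.17 for Timp1, -1.04 to 0.49 for Mmp2, -0.55 to 0.083 for Timp2, -0.95 to 0.029 for Mmp17, -0.27 to 1.14 for Timp3, -0.38 to 1.67 for Adamts17, -1.22 to 0.31 for Mmp15, -1.30 to 0.73 for Mmp11 and -0.10 to 1.05 for Adamts2. The cause of these changes was not tested. Mmp14, Adamts5, Adamts4, Adamts9 and Mmp19 kept their signs in every alternative, but Mmp19 was -0.07 without Slit2fl/fl replicate 1 and Adamts9 -0.29 without Slit2th replicate 1.

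Same-numbered libraries correlated in their deviations at r = 0.262, 0.208 and 0.0629, so the pairing by number is not established and the replicate block stays an alternative. Depth limits what can be said of the 15 untested members.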
